A study of Danio rerio with 4 samples.

Results

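The genes described here are the matrix proteases *mmp9* and *mmp14b*, the protease inhibitor *timp2b* and the annexin *anxa2a*, chosen by name from 2075 distinct gene names in the 6 tables deposited by the authors. All 4 were found, in 10 of 3154 entries. RNA of whole zebrafish retina (wild type fish, 10 months old) was sequenced at 12 hours after retinal injury (12 hpi), at 4 days after injury in fish kept in 100 µM valproic acid (4 dpi + VPA), at 4 days after injury without it (4 dpi), and without injury. Valproic acid inhibits histone deacetylases. The labels give 1 sample per group and the tables give 1 value per group, so no difference below has a replicate check here. The design text of the series mentions duplicate samples. Whether the values and the authors' p rest on duplicates is not stated. The kind of injury and the number of fish per sample are not given in the sources used here.

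Matrix metalloproteases are zinc enzymes that cut extracellular matrix and proteins at the cell surface. Mmp9 is a secreted gelatinase that degrades basement membrane collagen, and in injured zebrafish retina it is known from Müller glia and the progenitors derived from them, as well as from leukocytes. Mmp14 is anchored in the membrane, and in mammals it binds TIMP2, which in turn captures the precursor of the gelatinase MMP2 so that a neighbouring MMP14 can activate it. TIMP proteins also block the active site of metalloproteases. Annexin A2 binds membranes in the presence of calcium, and in mammals it pairs with S100A10 and gathers plasminogen and its activators at the cell surface.

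The level of each gene is given as FPKM, a count of sequenced fragments corrected for feature length and library size, which allows levels of different genes to be set side by side. *mmp9* was at 0.363 FPKM in uninjured retina, 47.8 FPKM at 12 hpi, 67.8 FPKM at 4 dpi + VPA and 85.7 FPKM at 4 dpi. All injured groups were far above the uninjured one, and *mmp9* had the lowest uninjured level of the 4 genes. *mmp14b* was at 8.85 FPKM at 4 dpi + VPA and 21.7 FPKM at 4 dpi, against 0.869 FPKM in uninjured retina, and it was not listed at 12 hpi. *timp2b* was listed at 12 hpi only, through both of its annotated transcripts, at 84.4 and 30.6 FPKM at 12 hpi, against 3.33 and 0.882 FPKM in uninjured retina. *anxa2a* was at 3.85 FPKM in uninjured retina, 22.5 FPKM at 12 hpi, 129 FPKM at 4 dpi + VPA and 108 FPKM at 4 dpi. The tables hold only entries with the authors' p of at most 0.05 and more than 1 FPKM in the higher group, so a gene that was not listed either missed these limits or was not measured, and its level in that group is not known.

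**Figure D1:**
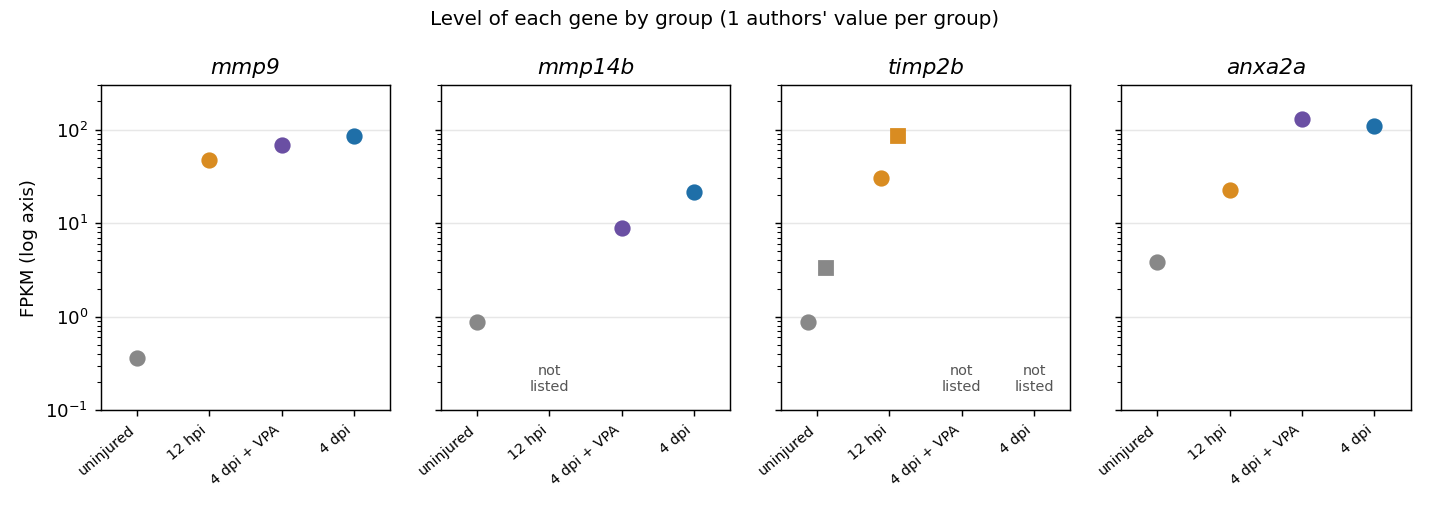
Level of *mmp9*, *mmp14b*, *timp2b* and *anxa2a* in FPKM (log axis) in uninjured, 12 hpi, 4 dpi + VPA and 4 dpi retina, 1 authors' value per point. Squares and circles in the *timp2b* panel are its 2 transcripts, and a group in which a gene was not listed has no point. *mmp9* and *anxa2a* have points in all 4 groups, *timp2b* has none at 4 days and *mmp14b* has none at 12 hpi.

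All listed entries of the 4 genes were higher after injury: 4 entries of 3 genes at 12 hpi, 3 entries at 4 dpi + VPA and 3 at 4 dpi. Over all genes, 63.7% of the entries listed at 12 hpi were higher, as were 58.3% at 4 dpi + VPA and 60.9% at 4 dpi. A log2 fold change of at least 4 was reached by *mmp9* and both *timp2b* transcripts at 12 hpi, where 28.4% of all entries reached it, by *mmp9* and *anxa2a* at 4 dpi + VPA (18.6% of all entries), and by *mmp9*, *mmp14b* and *anxa2a* at 4 dpi (17.2% of all entries). These shares count entries listed at 0 FPKM in uninjured retina, whose change is infinite. Of the entries listed higher, 276 of 394 at 12 hpi, 501 of 623 at 4 dpi + VPA and 780 of 893 at 4 dpi had a finite change. The 4 genes were chosen with their changes known, so the counts describe them and nothing more. In bulk tissue, more cells that express a gene and more RNA per cell cannot be told apart.

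*mmp9*, the secreted gelatinase (ENSDARG00000042816), lies on chromosome 8 of GRCz10 from 24260272 to 24274708 on the plus strand. In the authors' deposited table for 12 hpi its log2 fold change was 7.04 (p = 0.0068, q = 0.997, SE 1.15), a 132-fold difference. The SE here and below was derived by dividing the authors' log2 fold change by their test statistic. In the authors' deposited table for 4 dpi + VPA the value was 7.55 (p = 0.0068, q = 0.997, SE 1.16), and in that for 4 dpi it was 7.88 (p = 0.0061, q = 0.686, SE 1.24). The values at 12 hpi and 4 dpi + VPA are those of 1 transcript, ENSDART00000062845, and the 4 dpi value is that of the gene, for which the files annotate 2 transcripts. The uninjured FPKM was the same at both levels, but the 4 dpi level may include the second transcript. The 4 dpi value was the highest of all 780 finite log2 fold changes among entries listed higher in that table. At 12 hpi *mmp9* ranked 28 of 276 and at 4 dpi + VPA 31 of 501. The 4 dpi rank is among genes and the other ranks are among transcripts, so they are not on one scale. In both transcript rankings *thbd*, nearly at 0 in uninjured retina, was among the entries above *mmp9*. The authors marked none of the 3 *mmp9* entries significant. Of all entries, 0% at 12 hpi, 0% at 4 dpi + VPA and 2.73% at 4 dpi were listed higher and marked. At 4 dpi 40 of the 893 entries listed higher were marked, so most of them lacked the mark as *mmp9* did. The p of the *mmp9* entries is larger than a change of more than 6 SE would give under a normal distribution. Each listed entry of *mmp14b*, *timp2b* and *anxa2a* likewise has a larger p than its SE would give, so the derived SE is a rough guide only. The fold rests on an uninjured level below 1 FPKM: with a pseudocount of 1 FPKM the log2 change was 5.16 at 12 hpi, 5.66 at 4 dpi + VPA and 5.99 at 4 dpi.

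*mmp14b*, the membrane-anchored protease (ENSDARG00000008388), lies on chromosome 2 from 38178989 to 38201313 on the plus strand and has 1 annotated transcript in the files. Its log2 fold change was 3.35 at 4 dpi + VPA (p = 0.00805, q = 0.997, SE 0.97) and 4.64 at 4 dpi (p = 0.00135, q = 0.426, SE 0.96) in the authors' deposited tables. These are 10.2-fold and 25.0-fold differences from uninjured retina. The 4 dpi change lay above 89.7% of the finite changes listed higher, and the 4 dpi + VPA change above 75.0% of them.

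*timp2b*, the inhibitor (ENSDARG00000075261), lies on chromosome 3 from 57562440 to 57595994 on the minus strand. The more abundant transcript, ENSDART00000166855, changed by 4.66 on the log2 scale at 12 hpi (p = 0.00205, q = 0.926, SE 1.13), and ENSDART00000102062 by 5.11 (p = 0.028, q = 0.997, SE 1.49), per the authors' deposited table. The 2 changes differ by less than either SE. Summed over both transcripts, *timp2b* was at 114.9 FPKM at 12 hpi, against 4.22 FPKM in uninjured retina, a 27.3-fold difference. ENSDART00000166855 made up 73.4% of that sum at 12 hpi and 79.1% in uninjured retina, so both transcripts were higher in a similar proportion. The rule that divided reads between the 2 transcripts is not stated, and the split is uncertain.

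*anxa2a*, the annexin (ENSDARG00000003216), lies on chromosome 25 from 33527665 to 33541952 on the plus strand and has 1 annotated transcript. It was the 1 gene of the 4 that the authors marked significant: per the authors' deposited table it rose by 4.81 on the log2 scale at 4 dpi (p = 5e-05, q = 0.0421, SE 0.87). Of all entries at 4 dpi, 2.73% were listed higher and marked in this way, against 0% at 12 hpi, where *timp2b* was listed. At 4 dpi + VPA the log2 fold change was 5.07 (SE 0.88) with the same p of 5e-05, but q = 0.0717 in the authors' deposited table for transcripts, where it was not marked. No entry listed higher at 4 dpi + VPA had a lower q, and 0 of them were marked. The lowest q of the entries listed higher at 12 hpi was the same 0.0717. How many entries share this q was not counted, so it does not rank *anxa2a* first. At 12 hpi it was 2.55 (p = 0.0121, q = 0.997, SE 0.89) in the authors' deposited table, close to the median of 2.73 over all finite entries listed higher there. At 4 dpi the corresponding median over finite entries listed higher was 2.61 and at 4 dpi + VPA 2.54. Thus *anxa2a* lay near the middle of the finite changes listed higher at 12 hpi and well above the middle at 4 days.

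**Figure D2:**
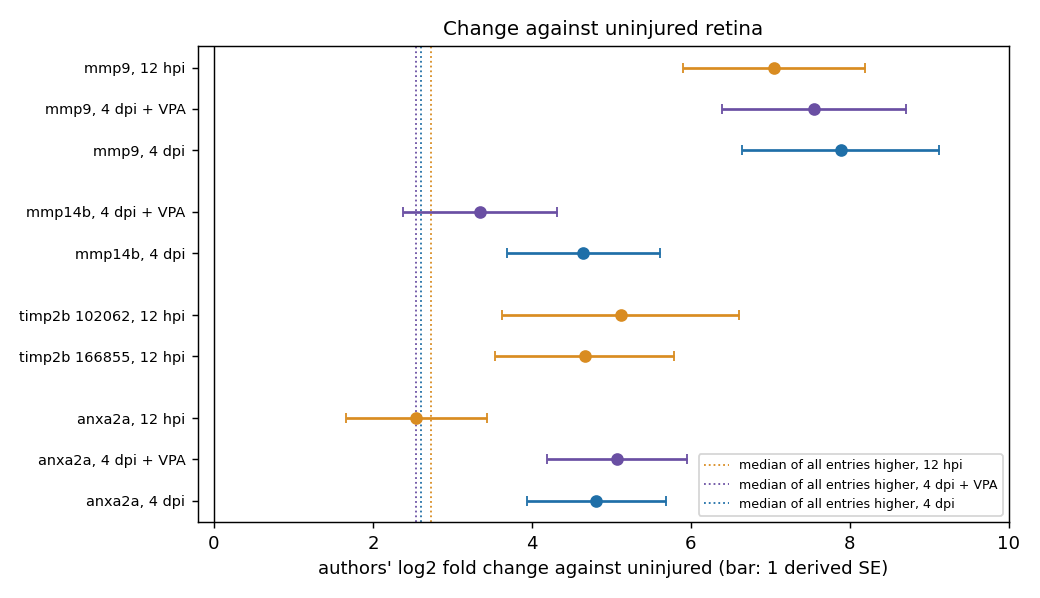
Authors' log2 fold change against uninjured retina for each entry of the 4 genes, with a bar of 1 SE derived from the authors' statistic to each side; dotted lines mark the median over all finite entries listed higher in each comparison. The authors' p are larger than these bars would give under a normal distribution. The *mmp9* values lie between 7.04 and 7.88, and the 12 hpi value of *anxa2a*, 2.55, is the one that lies at the medians.

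The order of levels among the genes changed between groups. In uninjured retina *timp2b*, summed over both transcripts (4.22 FPKM), and *anxa2a* (3.85 FPKM) were above *mmp14b* and *mmp9*. The main *timp2b* transcript alone, at 3.33 FPKM, was below *anxa2a*. At 12 hpi *timp2b* was highest, at 114.9 FPKM summed and 84.4 FPKM for the main transcript. It was followed by *mmp9* at 47.8 FPKM and *anxa2a* at 22.5 FPKM, so *mmp9* stood above *anxa2a* there. At 4 dpi *anxa2a* (108 FPKM) and *mmp9* (85.7 FPKM) were above *mmp14b* (21.7 FPKM). The ratio of *mmp9* to summed *timp2b* levels was 0.416 at 12 hpi, against 0.0862 in uninjured retina. The listed protease transcript thus remained below the inhibitor in both groups. It was a larger fraction of the inhibitor level at 12 hpi, while the difference in FPKM was wider there. The levels were 47.8 against 114.9 FPKM at 12 hpi and 0.363 against 4.22 FPKM in uninjured retina. The ratio of *mmp9* to *mmp14b* was 7.66 at 4 dpi + VPA and 3.95 at 4 dpi, against 0.418 in uninjured retina. At 12 hpi and 4 dpi + VPA the *mmp9* level is that of 1 of 2 annotated transcripts, so the ratios there leave out any level of the other.

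The levels of the 3 genes listed at 4 days were 0.408 to 1.19 times as high with VPA as without it. *mmp9* was at 67.8 FPKM at 4 dpi + VPA, against 85.7 FPKM at 4 dpi, a log2 ratio of -0.34 that sets 1 transcript at 4 dpi + VPA against the gene at 4 dpi. The root of the summed squares of the SEs of both changes was 1.70. *anxa2a* was at 129 FPKM at 4 dpi + VPA, against 108 FPKM at 4 dpi, a log2 ratio of 0.26 with a combined SE of 1.24. *mmp14b* showed the widest gap, with 8.85 FPKM at 4 dpi + VPA, against 21.7 FPKM at 4 dpi, a log2 ratio of -1.29 with a combined SE of 1.36. Each gap was smaller than its combined SE, which counts the error of the uninjured value in both changes. Among 246 genes listed higher in both tables with the same uninjured FPKM, the median log2 ratio was -0.14, with quartiles of -0.75 and 0.26. The ratio of *mmp14b* lay above 14.6% of these genes, that of *mmp9* above 41.9% and that of *anxa2a* above 74.4%. Neither these ratios nor any difference by VPA was tested, because each group has 1 value.

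*anxa2a* and *mmp9* were the 2 of these genes listed at both 12 hpi and 4 dpi, and both had a higher value at 4 dpi, which for *mmp9* is that of the gene, against 1 transcript at 12 hpi. *anxa2a* was at 108 FPKM at 4 dpi, against 22.5 FPKM at 12 hpi, a 4.80-fold ratio and a log2 ratio of 2.26 with a combined SE of 1.24. *mmp9* was at 85.7 FPKM at 4 dpi, against 47.8 FPKM at 12 hpi, a log2 ratio of 0.84 with a combined SE of 1.69. The gap of *mmp9* was thus within its combined SE and that of *anxa2a* was not, and the difference between the 2 gaps was not tested. The combined SE rests on the derived SEs, which are small beside the authors' p. Among 86 genes listed higher at both times with the same uninjured FPKM, the median log2 ratio of 4 dpi over 12 hpi was 0.09. *anxa2a* lay above 94.2% of these genes and *mmp9* above 83.7%. With VPA the log2 ratio of *anxa2a* against 12 hpi was 2.52 (combined SE 1.25) and that of *mmp9* was 0.50 (combined SE 1.63). The comparisons with uninjured retina share their uninjured values and the ratios share their 12 hpi value, so they are not separate evidence.

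**Figure D3:**
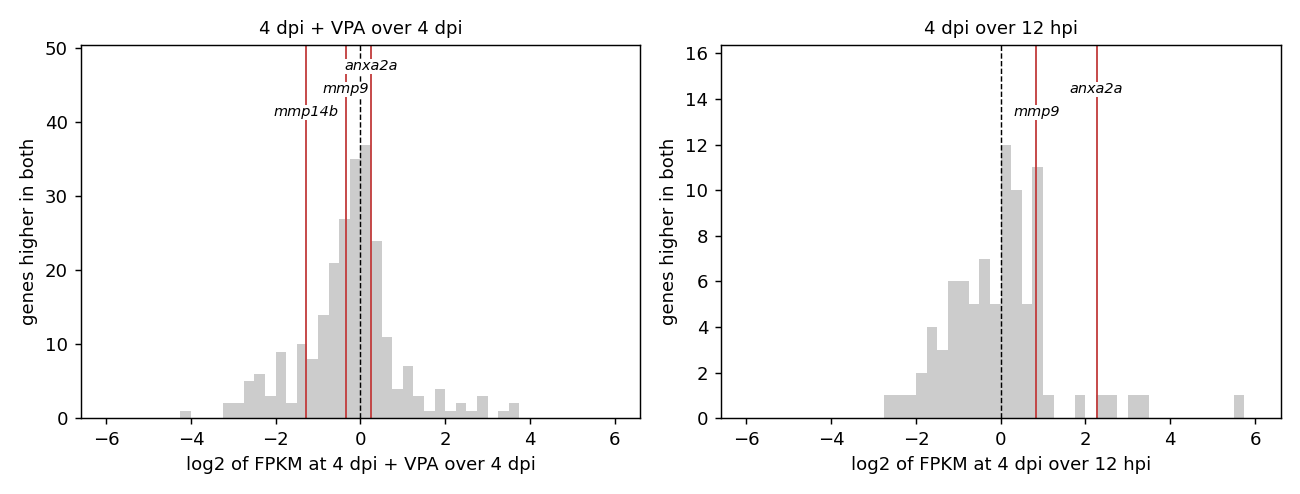
Number of genes (vertical axis) by log2 ratio of FPKM (horizontal axis) at 4 dpi + VPA over 4 dpi (left) and at 4 dpi over 12 hpi (right), for genes listed higher in both tables with the same uninjured FPKM; red lines mark the 4 genes where listed in both. *mmp14b* lies at -1.29 on the left, and *anxa2a* lies at 2.26 on the right, beyond most genes.

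Other members of the same families and of the plasminogen system were also listed. Of 140 genes on 5 lists (metalloproteases, ADAM and ADAMTS proteases, protease inhibitors, annexins with S100A10, and the plasminogen system with coagulation), 23 were listed in any comparison. At 12 hpi 9 were higher and 0 lower, at 4 dpi + VPA 16 were higher and 0 lower, and at 4 dpi 15 were higher and 0 lower. Of all entries, 63.7% at 12 hpi, 58.3% at 4 dpi + VPA and 60.9% at 4 dpi were listed higher. The median finite log2 fold change of these genes was 4.63 at 12 hpi, 3.37 at 4 dpi + VPA and 2.85 at 4 dpi, beside the medians of 2.73, 2.54 and 2.61 over all finite entries listed higher. Entries listed at 0 FPKM in uninjured retina have no finite change and enter neither set of medians. These counts and medians include the described 4 genes, which were chosen with their changes known. Without them 6 genes were higher at 12 hpi, 13 at 4 dpi + VPA and 12 at 4 dpi. Without them and without entries under 0.01 FPKM in uninjured retina, a choice made after the values were seen, the median was 3.79 over 3 genes at 12 hpi, 2.87 over 12 genes at 4 dpi + VPA and 2.69 over 11 genes at 4 dpi.

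Of 27 metalloprotease genes, 1 was listed at 12 hpi, 3 at 4 dpi + VPA and 4 at 4 dpi. *mmp2*, the second gelatinase, was at 13.0 FPKM at 4 dpi + VPA and 19.3 FPKM at 4 dpi, against 3.22 FPKM in uninjured retina. Its log2 fold change was 2.01 at 4 dpi + VPA (p = 0.0202, q = 0.997, SE 0.81) and 2.59 at 4 dpi (p = 0.0045, q = 0.584, SE 0.80) in the authors' deposited tables. *mmp14b* and *mmp2*, whose mammalian products act in sequence, thus were listed in the same comparisons. *mmp14b* was at 1.12 times the level of *mmp2* at 4 dpi and 0.682 times at 4 dpi + VPA, against 0.270 times in uninjured retina. *mmp15a*, another membrane-type protease, was listed at 4 dpi at 6.22 FPKM, against 1.23 FPKM in uninjured retina. The domain annotation in the files gives the metalloprotease catalytic domain and hemopexin repeats to *mmp9*, *mmp14b*, *mmp2* and *mmp15a*, and no further listed gene carries that catalytic domain. The fibronectin type II domain, by which gelatinases bind denatured collagen, is annotated for *mmp9* and *mmp2* but not for *mmp14b*. Of 36 ADAM and ADAMTS genes, *adam8b*, a membrane protease known from leukocytes in mammals, was listed in every comparison. Its transcript was at 15.3 FPKM at 12 hpi and 11.5 FPKM at 4 dpi + VPA, against 1.1 FPKM in uninjured retina, and the gene was at 9.78 FPKM at 4 dpi, against 1.27 FPKM in uninjured retina.

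Of 33 protease inhibitor genes, 3 were listed at 12 hpi, 4 at 4 dpi + VPA and 3 at 4 dpi. *timp2a*, the duplicate of *timp2b*, was listed at 4 dpi + VPA only, at 27.2 FPKM, against 9.57 FPKM in uninjured retina (p = 0.0438, q = 0.997, SE 0.75 of a log2 fold change of 1.51, per the authors' deposited table). Of the genes with a TIMP domain, *timp2b* was thus the 1 listed at 12 hpi, *timp2a* the 1 listed at 4 dpi + VPA, and 0 were listed at 4 dpi, and the tables do not give their levels there. *serpinb1*, an inhibitor of neutrophil proteases in mammals, was at 9.09 FPKM at 12 hpi, 29.0 FPKM at 4 dpi + VPA and 31.4 FPKM at 4 dpi, against 1.18 FPKM in uninjured retina. The cystatin gene *cst14b.1*, of the cysteine protease inhibitors, was at 39.6 FPKM at 4 dpi + VPA and 20.2 FPKM at 4 dpi, against 1.50 FPKM in uninjured retina. A second cystatin gene, *cst14a.2*, was at 36.6 FPKM at 4 dpi + VPA, against 7.06 FPKM in uninjured retina. *tfpia*, an inhibitor of tissue factor, was at 12.3 FPKM at 4 dpi, against 2.90 FPKM in uninjured retina, and *serpinb1l3* was at 1.41 FPKM at 12 hpi and was listed at 0 in uninjured retina.

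Of 19 genes for annexins and S100A10, *anxa2a* was the 1 listed at 12 hpi, while 6 were listed at 4 dpi + VPA and 6 at 4 dpi. *s100a10b*, whose mammalian product is the partner of annexin A2, was at 105 FPKM at 4 dpi, against 26.1 FPKM in uninjured retina (p = 0.0198, q = 0.999, SE 0.83 of a log2 fold change of 2.01, per the authors' deposited table). At 4 dpi + VPA 2 of its 3 annotated transcripts were listed, at 99.8 and 55.5 FPKM, against 17.7 and 6.31 FPKM in uninjured retina. *anxa2a* stood at 1.03 times the level of *s100a10b* at 4 dpi, against 0.148 times in uninjured retina, so their transcript levels were nearly equal at 4 dpi and were not before injury. Against the listed *s100a10b* transcripts at 4 dpi + VPA the ratio was 0.831, against 0.161 in uninjured retina. *anxa3b*, *anxa4* and *anxa5b*, other calcium-dependent membrane-binding annexins, were listed higher in both 4-day comparisons, with log2 fold changes of 2.50 to 3.47 at 4 dpi + VPA and 2.69 to 2.98 at 4 dpi in the authors' deposited tables. *anxa1a* was listed at 4 dpi alone, at 17.2 FPKM, against 3.52 FPKM in uninjured retina, and *anxa13* at 4 dpi + VPA alone, at 37.1 FPKM, against 12.9 FPKM in uninjured retina. At 4 days *anxa2a* had the largest log2 fold change of the listed annexins in both tables.

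Of 26 genes of the plasminogen system and coagulation, 3 were listed at 12 hpi, 2 at 4 dpi + VPA and 1 at 4 dpi. *f3a*, encoding tissue factor, the starter of coagulation, was at 35.8 FPKM at 12 hpi and 17.7 FPKM at 4 dpi + VPA, against 1.44 FPKM in uninjured retina. *plaua*, encoding the plasminogen activator urokinase, was at 1.01 FPKM at 4 dpi and was listed at 0 in uninjured retina. The fibrinogen chain gene *fgb* was at 1.29 FPKM at 12 hpi and listed at 0 in uninjured retina. *thbd*, encoding thrombomodulin, was at 1.63 FPKM at 12 hpi and 1.25 FPKM at 4 dpi + VPA and nearly at 0 in uninjured retina, so its fold change is not given.

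**Figure D4:**
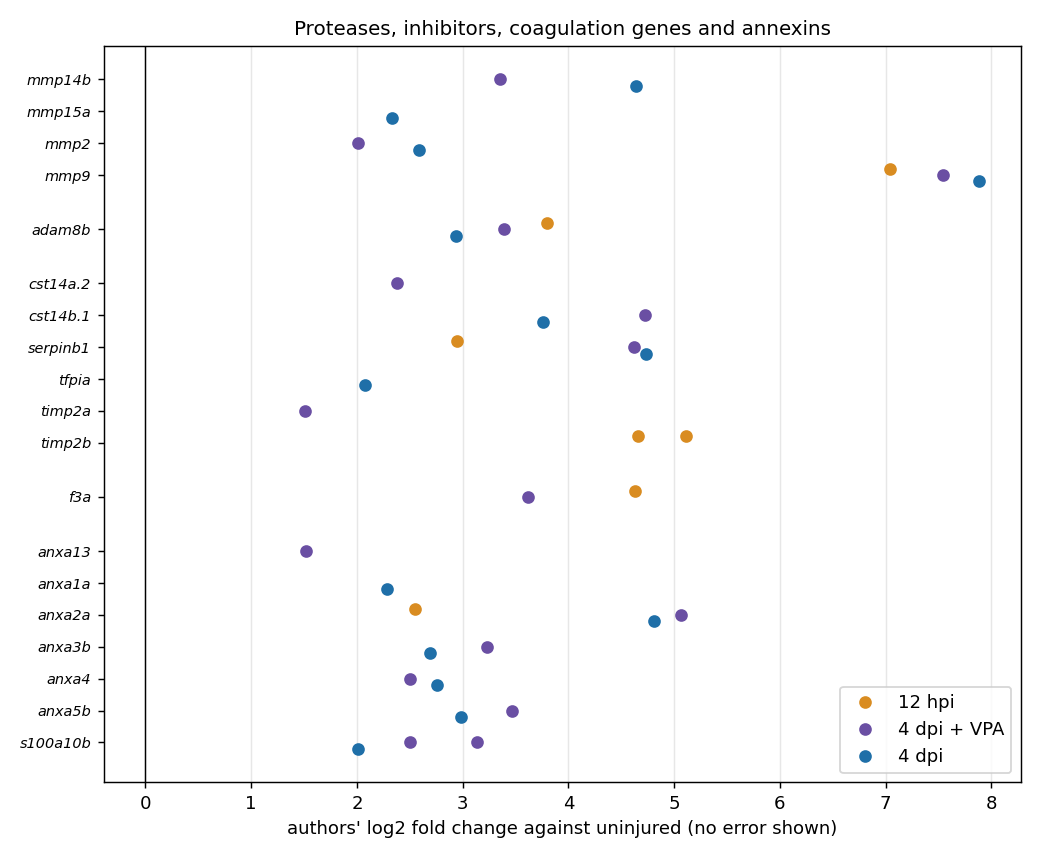
Authors' log2 fold change against uninjured retina (horizontal axis) for the genes of the 5 lists (vertical axis, grouped in the order metalloproteases, ADAM, inhibitors, coagulation, annexins), coloured by comparison, with genes at or nearly at 0 FPKM in uninjured retina left out. All points lie to the right of 0, *mmp9* lies farthest, and 12 hpi points are few among the annexins.

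By Euclidean distance of the log2 changes (pseudocount 0.1 FPKM) over 3 comparisons, among 170 other genes listed in all of them, the pattern most like that of *anxa2a* was that of *serpinb1* (distance 0.64), followed by the lens transcription factor gene *pitx3* (1.2) and the blood cell GTPase gene *rac2* (1.39). The genes nearest to *mmp9* were the lens crystallin genes *crygm7*, *crygs2* and *crygn1*, at distances of 1.82 to 1.92. These are less close, and their order of groups differed from that of *mmp9*: *crygs2* was at 61.7 FPKM at 12 hpi, 168 FPKM at 4 dpi + VPA and 69.2 FPKM at 4 dpi, against 1.07 FPKM in uninjured retina, so that it was highest with VPA where *mmp9* was highest without it. For *mmp14b*, over 2 comparisons, the nearest of the 171 genes listed in all 3 comparisons were *si:ch211-222l21.1* (0.32), *lhfpl2a* (0.62) and the adhesion gene *alcamb* (0.63). *alcamb* was at 10.1 FPKM at 4 dpi + VPA and 23.9 FPKM at 4 dpi, against 1.38 FPKM in uninjured retina. Genes that, like *mmp14b*, were not listed at 12 hpi could not enter, while 716 genes were listed in both 4-day comparisons. For *timp2b*, listed in 1 comparison, the likeness rests on a single change, and the nearest genes *cx44.1*, *CABZ01001434.1* and *ccl34b.8* were all listed at 0 in uninjured retina. *pitx3*, *crygm7*, *crygn1* and *lhfpl2a* were also listed at 0 there, so the changes and distances of all these genes depend on the pseudocount, and no other pseudocount was run for the distances.

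Markers of other cell types were listed in the same libraries. Over all genes, 63.7% of listed entries were higher at 12 hpi, 58.3% at 4 dpi + VPA and 60.9% at 4 dpi. These shares are of listed entries, while the marker counts below are out of all genes on each list, listed or not. Of the listed neutrophil markers and the listed macrophage and microglia markers, 0 were lower in any comparison. The marker counts were not tested against these shares. Of 12 neutrophil markers, 2 were higher at 12 hpi, 4 at 4 dpi + VPA and 5 at 4 dpi, and the summed FPKM of those listed was 30.8 at 12 hpi, against 3.10 for the same entries in uninjured retina, 38.6 at 4 dpi + VPA, against 4.19 in uninjured retina, and 57.5 at 4 dpi, against 7.99 in uninjured retina. The neutrophil sums hold different genes in each comparison, so they do not show a course over time. *srgn*, the larger part of the 12 hpi sum, was at 24.4 FPKM at 12 hpi and 21.7 FPKM at 4 dpi + VPA. At 4 dpi the *srgn* gene was at 19.2 FPKM. The neutrophil gene *lect2l* was at 6.44 FPKM at 12 hpi, 9.00 FPKM at 4 dpi + VPA and 4.32 FPKM at 4 dpi, and was listed at 0 in uninjured retina, while *mpx* and *lyz* were not listed. Of 21 macrophage and microglia markers, 1 was higher at 12 hpi, 8 at 4 dpi + VPA and 10 at 4 dpi, with summed FPKM of 11.7 at 12 hpi, against 3.32 in uninjured retina, 763 at 4 dpi + VPA, against 53.8 in uninjured retina, and 787 at 4 dpi, against 103 in uninjured retina. The 4-day sums hold different genes. *apoc1* transcripts gave 421 and 171 FPKM at 4 dpi + VPA, and the gene gave 266 FPKM at 4 dpi. *cd74a* and *cd74b*, at 175 and 84.5 FPKM at 4 dpi, were not listed at 4 dpi + VPA. *mpeg1.1*, a macrophage gene, was at 19.7 FPKM in the listed transcript at 4 dpi + VPA, against 2.37 FPKM in uninjured retina, and 18.5 FPKM for the gene at 4 dpi, against 2.71 FPKM in uninjured retina. Of 12 Müller glia markers, 4 were higher at 4 dpi + VPA and 4 at 4 dpi, among them *gfap* at 46.3 FPKM at 4 dpi + VPA and 84.5 FPKM at 4 dpi, against 10.2 FPKM in uninjured retina. Their summed FPKM was 612 at 4 dpi + VPA, against 50.9 in uninjured retina, and 3482 at 4 dpi, against 311 in uninjured retina. These sums are not alike: *apoeb* was at 2111 FPKM for the gene at 4 dpi, while its transcripts listed at 4 dpi + VPA were at 11.2 and 1.06 FPKM. At 12 hpi 1 Müller glia marker was listed, and it was lower.

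Of 20 lens, cornea and skin markers, 6 were higher at 12 hpi, 7 at 4 dpi + VPA and 7 at 4 dpi, and 0 were lower in any comparison. All that were listed were thus higher, beside 63.7%, 58.3% and 60.9% of all listed entries. Their summed FPKM was 344 at 12 hpi, against 26.8 in uninjured retina, 637 at 4 dpi + VPA, against 28.1 in uninjured retina, and 244 at 4 dpi, against 29.6 in uninjured retina, and *cryaa*, *crygm3*, *crygs4*, *lim2.1* and *lim2.4* were listed at 0 in uninjured retina. The sums mix genes with unlike patterns. *krt8* was at 96.5 FPKM at 12 hpi, 112 FPKM at 4 dpi + VPA and 166 FPKM at 4 dpi. The crystallin gene *crygm3* was at 121, 304 and 39.3 FPKM in the same order, and *lim2.1* at 4.59, 5.36 and 4.98 FPKM. Of 19 endothelial and pericyte markers 2 were higher at 4 dpi, of 11 red blood cell markers 2 were higher at 12 hpi, and of 12 pigment epithelium markers 1 was higher and 1 lower at 4 dpi + VPA. Of 24 photoreceptor genes, which mark the labelled tissue, 1 was higher and 3 lower at 12 hpi, 1 was higher and 2 lower at 4 dpi + VPA, and 1 was higher and 1 lower at 4 dpi. Their summed FPKM was 147 at 12 hpi, against 380.2 in uninjured retina, 138 at 4 dpi + VPA, against 326 in uninjured retina, and 50.8 at 4 dpi, against 89.0 in uninjured retina. The higher one was *nr2e3*, a photoreceptor transcription factor gene, at 72.3 FPKM at 12 hpi, 43.6 FPKM at 4 dpi + VPA and 37.2 FPKM at 4 dpi, against 11.9 FPKM in uninjured retina. The part of any of these cell types in the levels of *mmp9*, *mmp14b*, *timp2b* and *anxa2a* was not tested.

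The files' locus of each of the 4 genes overlapped no other listed gene. In the RefSeq annotation of GRCz12tu, 4 other loci overlap *mmp9*, 1 overlaps *mmp14b*, 1 overlaps *timp2b* and 0 overlap *anxa2a*. Neither the use of strand in counting is stated, nor the handling of reads shared with the duplicates of *mmp14b*, *timp2b* and *anxa2a*, so levels of overlapping or duplicated genes are uncertain to that extent.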

How the data were processed

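The submitters' processing notes name Cufflinks 2.2.1, TopHat2 2.1.0 and Bowtie2 2.2.2 and the build GRCz10. The authors deposited 6 tables of higher and lower entries, for genes at 4 dpi and for single transcripts at 12 hpi and 4 dpi + VPA. Per the file headers, each entry holds FPKM values for uninjured and injured retina, and the log2 fold change, test statistic (a score), p-value and q-value of the authors. Library depth is unknown from these tables. Of 257 transcripts shared by the 12 hpi and 4 dpi + VPA tables, 257 had identical uninjured FPKM, as had 342 of 346 genes with 1 annotated transcript shared by the 4 dpi and 4 dpi + VPA tables.

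Duplicate samples are mentioned in the design text of the series, but the tables hold 1 value per group, so no test was run, and the authors' values were copied. Standard errors are the log2 fold change divided by the statistic. Ratios between injured groups used the entry of highest mean FPKM per gene and genes with the same uninjured FPKM in both tables. The genes and lists were chosen with earlier results of these data known. Every listed gene of the 5 lists was named, with the 3 genes nearest in pattern to each of the 4. A further gene is not reported here and is left out of the lists and their counts. Alternatives were pseudocounts of 0.01, 0.1 and 1, summed transcripts, subtraction of the median ratio, p of at most 0.01, at least 5 FPKM in the higher group, and no entries under 0.01 FPKM. Functions were tested on simulated data. Python 3.11.15, pandas 2.3.3 and numpy 2.4.6 were used.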

Additional observations from a re-analysis of the deposited data

How the results depend on the processing

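With a pseudocount of 1 FPKM the log2 change of *mmp9* was 5.16 at 12 hpi, 5.66 at 4 dpi + VPA and 5.99 at 4 dpi, and that of *mmp14b* at 4 dpi was 3.60, each more than 1 SE below the deposited value; a pseudocount by its construction lowers changes from a low level. With the authors' p of at most 0.01, the genes of the 5 lists that were higher numbered 5 at 12 hpi, 8 at 4 dpi + VPA and 8 at 4 dpi, since fewer entries enter. A further 13 counts for single lists changed by more than 1.5 times, all downward, under stricter limits. A pseudocount added to both values, or a sum of *timp2b* transcripts that were both higher, cannot reverse a direction, so these alternatives did not check it. Subtraction of the median ratio reversed no ratio of *mmp9*, *mmp14b* or *anxa2a*. That median was small, -0.058 for 4 dpi + VPA over 4 dpi and -0.059 for 4 dpi over 12 hpi. Summing transcripts gave no separate value for the ratios between injured groups, because *mmp9*, *mmp14b* and *anxa2a* each had 1 listed entry per table. No paired analysis was possible because each group has 1 value. Depth is unknown, so the precision of low levels, such as the uninjured level of *mmp9*, cannot be given.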

Other observations

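Besides the gelatinases, other genes with an annotated fibronectin type II domain, the fibronectin genes *fn1a* and *fn1b* and the phospholipase A2 receptor gene *PLA2R1*, were listed higher at 4 days. They were looked up after the domain was seen in the files. *fn1a* was at 11.5 FPKM in its more abundant listed transcript at 4 dpi + VPA, against 0.628 FPKM in uninjured retina, and 20.1 FPKM for the gene at 4 dpi, against 0.828 FPKM in uninjured retina. *fn1b* was at 18.2 FPKM in its listed transcript at 4 dpi + VPA, against 2.15 FPKM in uninjured retina, and 12.8 FPKM for the gene at 4 dpi, against 2.70 FPKM in uninjured retina. *PLA2R1* was listed at 4 dpi, at 3.34 FPKM, against 0.668 FPKM in uninjured retina. None of the 3 was listed at 12 hpi.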
